A study of Mus musculus with 12 samples.

Results

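The receptors and phagocyte enzymes of macrophages, with the lineage factors behind them, were followed as a set of 46 genes in the mouse auditory nerve after ouabain. A gene entered by its symbol alone, whatever its level, but the set was chosen with earlier results of these data known. All 46 were found among the 18193 genes that had a probe set of exactly 1 symbol. They were carried by 84 probe sets, and the probe set with the highest mean over all arrays stood for each gene.

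Macrophages are found in injured tissue as resident cells and as cells derived from blood monocytes, and they clear dead cells and debris. They see their targets through several kinds of surface protein. Fc receptors bind antibody-coated particles, pattern recognition receptors bind microbial and damage signals, and scavenger receptors take up lipids, lipoproteins and apoptotic cells. What is taken up is broken down in lysosomes.

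The samples were modiolus tissue, which is the bony axis of the cochlea with the auditory nerve, its glia and the cell bodies of the spiral ganglion, from CBA/CaJ mice aged 8 to 12 weeks and of both sexes. Right ears received 3 mM ouabain, an inhibitor of the sodium potassium pump that kills type I spiral ganglion neurons, at the round window niche for 60 min. Left ears served as controls, labelled as contralateral and unoperated at 3 days and only as control at 7 days. The 12 Affymetrix mouse arrays formed 4 groups of 3, which were control and ouabain at 3 days and control and ouabain at 7 days. Ouabain ears alone were operated on, so surgery and drug cannot be told apart, and mice with a small threshold shift after ouabain had been left out by the investigators. Each array carried the pooled RNA of a pair of preparations from unnamed animals, so a p-value here measures the spread between pools. All values are log2 RMA signals, on which a difference of 1 is a 2-fold change, and a gene was called when its adjusted p in the limma fit was under 0.05 and its fold change was above 1.5.

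The arrays were alike in scale, with medians from 6.01 to 6.09, and 3 arrays a group set the limit of precision. The tissue carried what its label says, since the mean level of 10 neuronal genes was 11.5 to 12.0 on the control arrays. In ouabain ears none of these 10 genes had a fold change above 0 at either day, and 9 were called lower at each day, all but Syt1. Of all 18193 genes 1467 were called lower at 3 days and 1492 at 7 days. The neurofilament gene Nefl changed by -2.26 at 3 days and by -3.27 at 7 days. The mean level of 7 myelin and Schwann cell genes was 12.09 to 12.16 on 3-day controls and 11.76 to 11.87 on ouabain arrays of that day. At 7 days it was 12.11 to 12.23 on controls and 11.33 to 11.54 after ouabain. Every ouabain array thus lay below every control of its day. Of these genes 2 were called lower at 3 days and 3 at 7 days, while Mbp and Cnp were not called. Sox10, the transcription factor of Schwann cells, rose at 7 days by 0.66. The neuronal fall differed between arrays. The median neuronal difference from same-day controls was -1.37 on ouabain replicate 1 at 3 days against -3.01 and -2.93 on replicates 2 and 3, and -2.26 against -4.003 and -3.95 at 7 days. Control replicate 1 at 7 days also stood apart. Its neutrophil genes lay 1.40 and its erythroid genes 1.29 above the mean of the 3 controls of that day, while the neutrophil genes of control replicate 3 lay at -1.38.

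Spi1 (PU.1), the master transcription factor of macrophages, is known to bind purine-rich sites with a GAGGAA core near many macrophage genes. As the members rose together, their promoters were searched for this core on both strands, that is for GAGGAA and TTCCTC. RefSeq promoter windows of 300 bases, from 250 before to 50 after a start site on GRCm38.p6, were at hand for 32 of the 46 genes. At least 1 window of 18 of these 32 genes held the core, or 56.2%, against 31.3% of 27025 genes with a window. The longer GAGGAAGT, which contains the core and was searched with its complement ACTTCCTC, was found for Cd53 and Pld4, which is 6.25% of the 32 genes against 3.69% of all genes. A match describes the letters only. The windows of the 4 genes with the largest 3-day response among those holding the core are given here, with the core in capitals.
Cd68, chr11:69666121-69666420, minus strand: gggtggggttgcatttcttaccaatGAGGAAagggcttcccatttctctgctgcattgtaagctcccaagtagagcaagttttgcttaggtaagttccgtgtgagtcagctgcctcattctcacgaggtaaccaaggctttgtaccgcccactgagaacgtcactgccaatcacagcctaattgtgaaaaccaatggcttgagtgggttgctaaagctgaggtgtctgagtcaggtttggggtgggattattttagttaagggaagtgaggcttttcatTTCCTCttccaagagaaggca
Ms4a7, chr19:11336097-11336396, minus strand: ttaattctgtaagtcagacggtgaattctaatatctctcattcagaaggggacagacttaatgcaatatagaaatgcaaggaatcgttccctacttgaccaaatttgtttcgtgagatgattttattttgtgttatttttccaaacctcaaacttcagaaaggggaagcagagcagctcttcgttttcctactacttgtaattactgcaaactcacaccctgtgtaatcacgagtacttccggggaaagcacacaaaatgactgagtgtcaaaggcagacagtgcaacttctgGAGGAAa
Cd84, chr1:171839447-171839746, plus strand: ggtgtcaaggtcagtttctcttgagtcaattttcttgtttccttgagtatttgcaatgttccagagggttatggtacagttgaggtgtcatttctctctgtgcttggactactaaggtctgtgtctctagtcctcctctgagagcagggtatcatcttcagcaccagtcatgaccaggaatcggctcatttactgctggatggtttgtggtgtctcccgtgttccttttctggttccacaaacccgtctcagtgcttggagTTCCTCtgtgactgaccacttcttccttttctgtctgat
Axl, chr7:25788684-25788983, minus strand: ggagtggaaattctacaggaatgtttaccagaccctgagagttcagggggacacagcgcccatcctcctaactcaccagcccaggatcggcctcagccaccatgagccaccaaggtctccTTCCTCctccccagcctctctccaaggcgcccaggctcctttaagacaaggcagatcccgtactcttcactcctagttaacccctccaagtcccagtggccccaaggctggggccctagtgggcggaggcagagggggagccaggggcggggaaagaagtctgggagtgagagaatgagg
The Cd68 window held the core at both ends, at -225 and, as its complement, at +30 from the start site. In Ms4a7 it stood at +44, in Cd84 its complement began at +12 and in Axl at -130.

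Most of the 46 genes rose, and none fell. At 3 days 43 were called higher in ouabain ears, where 7.51% of all 18193 genes were called higher, and at 7 days 39 were, against 7.57% of all genes. Over the 46 genes the log2 fold change had a median of 1.57 at the earlier day and 1.54 at the later one, beside 0.01 and 0.03 over all genes. No member was lower even at an unadjusted p under 0.05, where 19.2% of all genes were at 3 days and 18.3% at 7 days. On 44 members every ouabain array lay above every control array at 3 days, against 22.4% of all genes, and on 42 members at 7 days, against 25.6%. Of all 84 probe sets of the members, 62 were called higher at 3 days and 57 at 7 days, and none was called lower. Of the 23 members with several probe sets, 7 had all of them called at 3 days and 7 at 7 days. Among called members the fold at 3 days ran from 1.78 for Spi1 to 14.5 for Lgals3, and the fold at 7 days from 1.53 for Cd163 to 7.73 for Ms4a7. In pooled tissue, more macrophages and more RNA per macrophage cannot be told apart. Some members are also made by other cells, such as Apoe by glia and Cd36 by endothelium. Which cells held the added RNA was not tested.

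**Figure D1:**
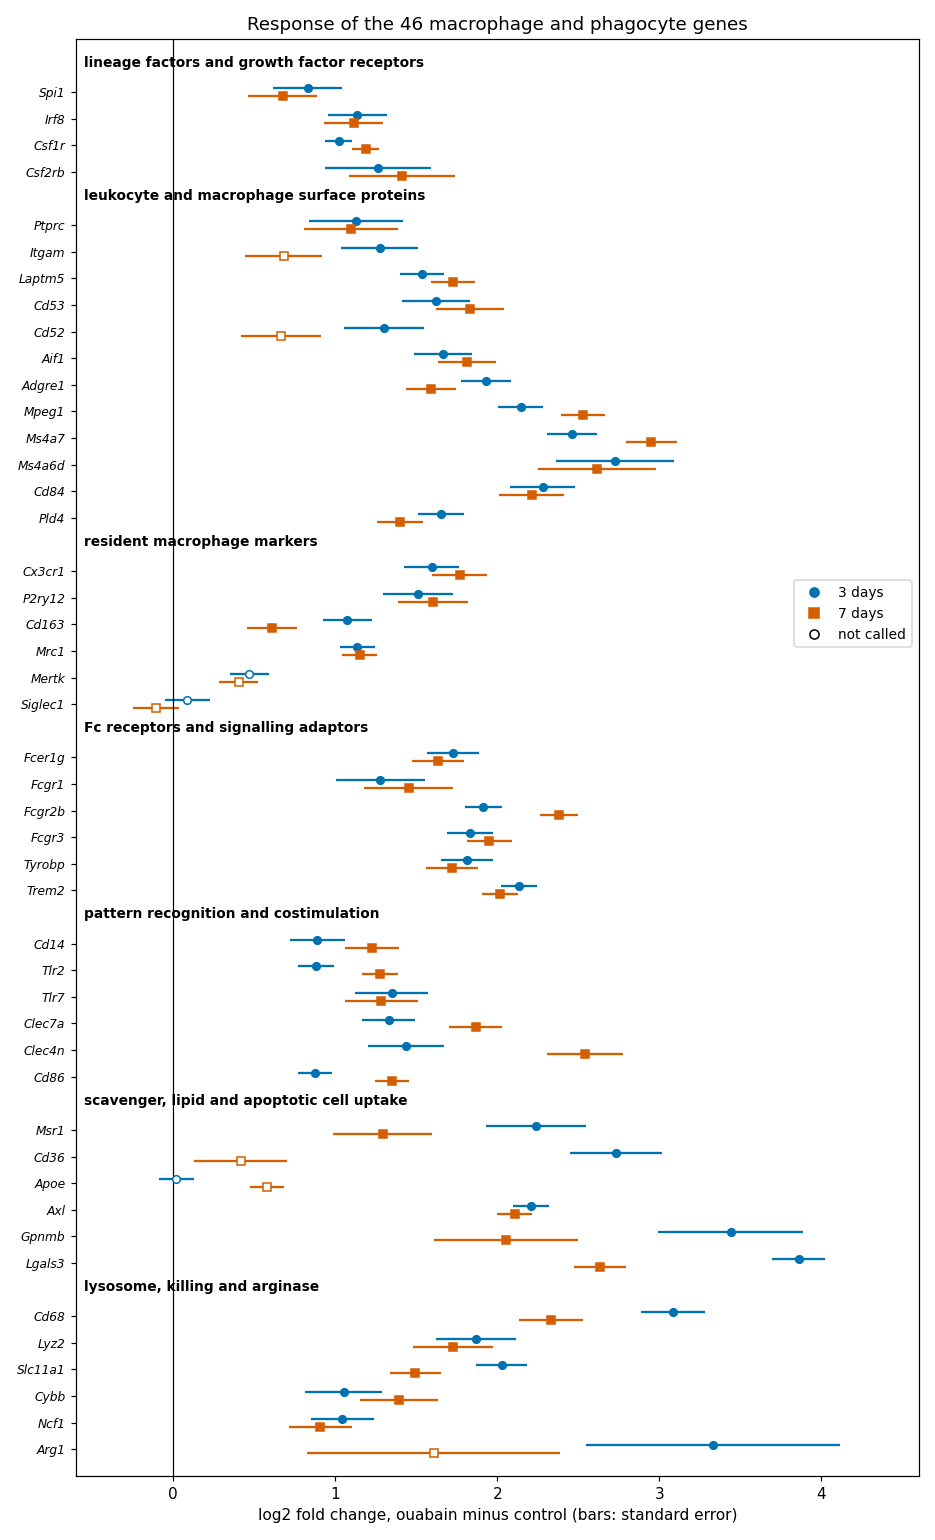
Log2 fold change of each of the 46 genes, ouabain minus control, at 3 days (blue circles) and 7 days (orange squares) with the standard error, grouped by role. Filled symbols were called higher and open symbols were not, and all but 3 genes are filled at 3 days, with Lgals3 farthest to the right at 3.86.

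The lineage factors and growth factor receptors rose in all 4 cases at both days, with medians of 1.08 and 1.15. Csf1r, the receptor that macrophages need for survival, read 10.75, 10.93 and 10.90 on the 3-day controls against 11.92, 11.81 and 11.92 after ouabain, and 11.03, 11.02 and 11.17 on the 7-day controls against 12.19, 12.26 and 12.34. The groups were tight and well apart at each day. Its log2 fold change was 1.02 at 3 days (SE 0.08, adjusted p = 4.49e-06) and 1.19 at 7 days (SE 0.08, adjusted p = 1.59e-06). Csf2rb, the shared signalling chain of the receptors for GM-CSF, IL-3 and IL-5, spread more. It read 6.52, 7.43 and 7.89 on the 3-day controls and 8.01, 8.62 and 9.01 after ouabain, and 6.83, 6.41 and 6.67 against 8.44, 7.72 and 7.97 at 7 days. The highest 3-day control lay just below the lowest ouabain array of that day, and no groups overlapped. Csf2rb rose by 1.27 at 3 days (SE 0.33, adjusted p = 0.0135) and by 1.41 at 7 days (SE 0.33, adjusted p = 0.00719), and the 3-day call was lost without ouabain replicate 3 (adjusted p = 0.0664).

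Irf8, a transcription factor of the monocyte and dendritic lineages, rose by 1.14 and 1.11. Spi1 itself rose by 0.83 (adjusted p = 0.0128) and 0.67 (adjusted p = 0.0354), and its calls were the least firm of the set. The 3-day call was lost without control replicate 1 (adjusted p = 0.0574) or ouabain replicate 3 (0.0631). The 7-day call was lost without control replicate 2 (0.0829) or 3 (0.118) and without ouabain replicate 1 (0.109), 2 (0.0672) or 3 (0.0610).

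The surface proteins shared by leukocytes and macrophages rose in 12 of 12 cases at 3 days and in 10 at 7 days. Ms4a7, a tetraspan protein of macrophages, had the largest response of all members at 7 days. It read 6.60, 7.08 and 6.59 on the 3-day controls and 9.18, 9.28 and 9.19 after ouabain, then 7.23, 7.17 and 7.42 against 9.91, 10.30 and 10.47. Every ouabain array was thus over 2 log2 units above every control of its day. The log2 fold change was 2.46 at 3 days (SE 0.16, adjusted p = 8.38e-07) and 2.95 at 7 days (SE 0.16, adjusted p = 2.5e-07). The related Ms4a6d read 6.07, 7.36 and 7.10 on the 3-day controls and 9.01, 9.62 and 10.08 after ouabain, then 5.69, 5.33 and 6.39 against 8.58, 8.05 and 8.65. Its replicates spread more, but its groups were far apart. It rose by 2.73 (SE 0.37, adjusted p = 0.000162) and 2.62 (SE 0.37, adjusted p = 0.000229). The probe sets of the Ms4a family may share sequence between members, so these values may be mixed.

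Cd84, a SLAM family receptor, rose by 2.28 and 2.21, and Mpeg1, a pore-forming protein of phagocytic vacuoles, by 2.14 and 2.53. Adgre1, an adhesion receptor used as a general macrophage marker, rose by 1.93 and 1.59. The calcium-binding Aif1 (Iba1), the usual stain for microglia and macrophages, rose by 1.67 and 1.82. Next came the endolysosomal nuclease Pld4 with 1.65 and 1.40, the tetraspanin Cd53 with 1.62 and 1.83, and the lysosomal protein Laptm5 with 1.54 and 1.73. Laptm5 rested on probe sets that may bind other transcripts: the one plain probe set of this gene gave 0.28 (adjusted p = 0.0680) and 0.00 (adjusted p = 0.995).

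Ptprc (CD45), the phosphatase of all leukocytes, rose by 1.13 and 1.10. Its 3 controls at 7 days read 8.91, 7.71 and 7.69, so that the replicate rich in neutrophil transcripts was the high one. The 7-day call of Ptprc was lost without control replicate 2 (adjusted p = 0.0650) or 3 (0.0565), and the 3-day call without control replicate 1 (0.0533) or ouabain replicate 3 (0.0602). Itgam (CD11b), the integrin chain of myeloid cells, and Cd52, a small glycoprotein of lymphocytes and monocytes, rose at 3 days by 1.28 and 1.30 but were not called at 7 days, with 0.68 (adjusted p = 0.0554) and 0.66 (adjusted p = 0.0707). Without control replicate 1 at 7 days both were called, with 0.97 (adjusted p = 0.00564) and 0.96 (adjusted p = 0.00684). The 7-day count was 41 in that fit. Itgam was also called without ouabain replicate 2 at 7 days (0.85, adjusted p = 0.0343).

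Of the 6 markers of resident macrophages, 4 rose at both days, with a median of 1.11 at 3 days and 0.88 at 7 days over all 6. Cx3cr1, the fractalkine receptor that marks microglia and many tissue macrophages, read 8.24, 8.29 and 8.08 on the 3-day controls and 9.56, 9.70 and 10.13 after ouabain. At 7 days it read 8.21, 8.61 and 8.10 against 10.21, 10.17 and 9.84. All ouabain arrays lay above all controls. It rose by 1.60 at 3 days (SE 0.17, adjusted p = 2.80e-05) and 1.77 at 7 days (SE 0.17, adjusted p = 1.31e-05). The other Cx3cr1 probe set was called at 3 days but not at 7 days. P2ry12, the ADP receptor by which microglia sense injury, read 6.32, 6.36 and 5.46 against 7.76, 7.56 and 7.37 at 3 days, and 6.51, 6.83 and 7.00 against 8.42, 8.26 and 8.48 at 7 days. Its response was much the same size, 1.51 (SE 0.21, adjusted p = 0.000245) and 1.60 (SE 0.21, adjusted p = 0.000166).

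Mrc1 (CD206), the mannose receptor, rose by 1.14 and 1.15. Cd163, the haemoglobin scavenger receptor, rose by 1.08 and by 0.61, the latter lost without control replicate 2 (adjusted p = 0.0523) or ouabain replicate 3 at 7 days (log2 fold change 0.53, under the fold threshold). Mertk, a receptor for apoptotic cells, was not called. Its controls read 9.66, 9.81 and 10.02 at 3 days against 10.15, 10.32 and 10.43, and 8.997, 9.34 and 9.28 at 7 days against 9.52, 9.62 and 9.69. The groups did not overlap, but the fold stayed at 1.39 and 1.32 (adjusted p = 0.0130 and 0.0280), below the fold threshold. Siglec1 (CD169), a sialic acid receptor of some tissue macrophages, differed by 0.09 and -0.11, and its other probe sets were not called either.

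The Fc receptors and signalling adaptors rose in 6 of 6 cases at both days, and their medians were 1.82 and 1.84. Fcgr2b, the inhibitory receptor for IgG, read 8.22, 8.26 and 8.45 on the 3-day controls and 10.15, 10.13 and 10.38 after ouabain, then 8.41, 8.39 and 8.64 against 10.94, 10.67 and 10.98. Replicates agreed closely, and the 7-day ouabain arrays were above those of 3 days. Its log2 fold change was 1.91 at 3 days (SE 0.12, adjusted p = 5.54e-07) and 2.38 at 7 days (SE 0.12, adjusted p = 1.51e-07), and 4 of its 5 probe sets were called higher. Trem2, a lipid-sensing receptor of microglia and lipid-handling macrophages, read 6.10, 6.27 and 6.33 against 8.11, 8.46 and 8.52 at 3 days, and 6.53, 6.43 and 6.53 against 8.46, 8.48 and 8.60 at 7 days. On this probe set it rose by 2.13 (SE 0.11, adjusted p = 2.01e-07) and 2.02 (SE 0.11, adjusted p = 3.07e-07). The other Trem2 probe set was dim and gave 0.21 (adjusted p = 0.357) and -0.22 (adjusted p = 0.301), so the size of this response is uncertain.

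Tyrobp (DAP12), the adaptor that carries the signal of Trem2, rose by 1.81 and 1.72. The adaptor Fcer1g, the common gamma chain of the activating Fc receptors, rose by 1.73 and 1.63. In folds these were 3.52 and 3.29 for Tyrobp and 3.31 and 3.10 for Fcer1g. The activating IgG receptors Fcgr3 and Fcgr1 rose by 1.83 and 1.95 and by 1.28 and 1.46. Of the 2 probe sets for Fcgr1 only the brighter was called, and receptors of this family are alike enough that probe sets may cross-react.

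The 6 genes of pattern recognition and costimulation all rose at both days, with medians of 1.11 and 1.32. Clec4n (dectin-2), a receptor for fungal mannans, read 5.73, 5.77 and 6.10 on the 3-day controls and 7.35, 7.71 and 6.84 after ouabain. At 7 days it read 5.55, 5.70 and 6.05 against 8.56, 7.84 and 8.51. The lowest 7-day ouabain array was above the highest 3-day one. It rose by 1.44 (SE 0.24, adjusted p = 0.000699) and 2.54 (SE 0.24, adjusted p = 1.07e-05). Clec7a (dectin-1), the receptor for beta-glucan, read 7.94, 7.52 and 7.67 against 9.26, 8.81 and 9.06 at 3 days, and 8.48, 7.87 and 8.11 against 10.03, 10.14 and 9.89 at 7 days. Its groups were also apart, with rises of 1.33 (SE 0.16, adjusted p = 8.78e-05) and 1.87 (SE 0.16, adjusted p = 7.54e-06).

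Cd86, a costimulator of T cells, rose by 0.87 and 1.35, and Tlr2, a receptor for lipoproteins, by 0.88 and 1.28. Cd14, the co-receptor for lipopolysaccharide, rose by 0.89 and 1.23. Tlr7, the endosomal receptor for single-stranded RNA, rose by 1.35 and 1.29. Thus 5 of the 6 had the numerically larger response at 7 days, but none of these differences passed the test of the difference between the days, the nearest being Clec4n with 1.10 (adjusted p = 0.164).

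The genes for scavenging, lipid handling and uptake of apoptotic cells held the 2 largest responses at 3 days and also Apoe, which was not called. Lgals3 (galectin-3), a sugar-binding lectin made in quantity by phagocytes that clear myelin, led all members at 3 days. It read 9.09, 9.47 and 9.54 on the 3-day controls and 13.02, 13.33 and 13.32 after ouabain, then 9.77, 9.27 and 9.33 against 12.03, 11.95 and 12.29. The levels of ouabain ears were well above controls at both days and lower at 7 days than at 3. Its log2 fold change was 3.86 (SE 0.16, adjusted p = 6.37e-08), or 14.5-fold, at 3 days and 2.64 (SE 0.16, adjusted p = 6.64e-07), or 6.21-fold, at 7 days. Gpnmb, a glycoprotein of lipid-laden macrophages, read 5.92, 6.02 and 6.11 against 9.58, 9.25 and 9.54 at 3 days. At 7 days it read 7.88, 5.74 and 7.84 against 8.98, 8.91 and 9.72, so that the 7-day controls disagreed among themselves. It rose by 3.44 (SE 0.45, adjusted p = 0.000126) and 2.05 (SE 0.45, adjusted p = 0.00492). The other Gpnmb probe set was called at 3 days but not at 7 days.

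**Figure D2:**
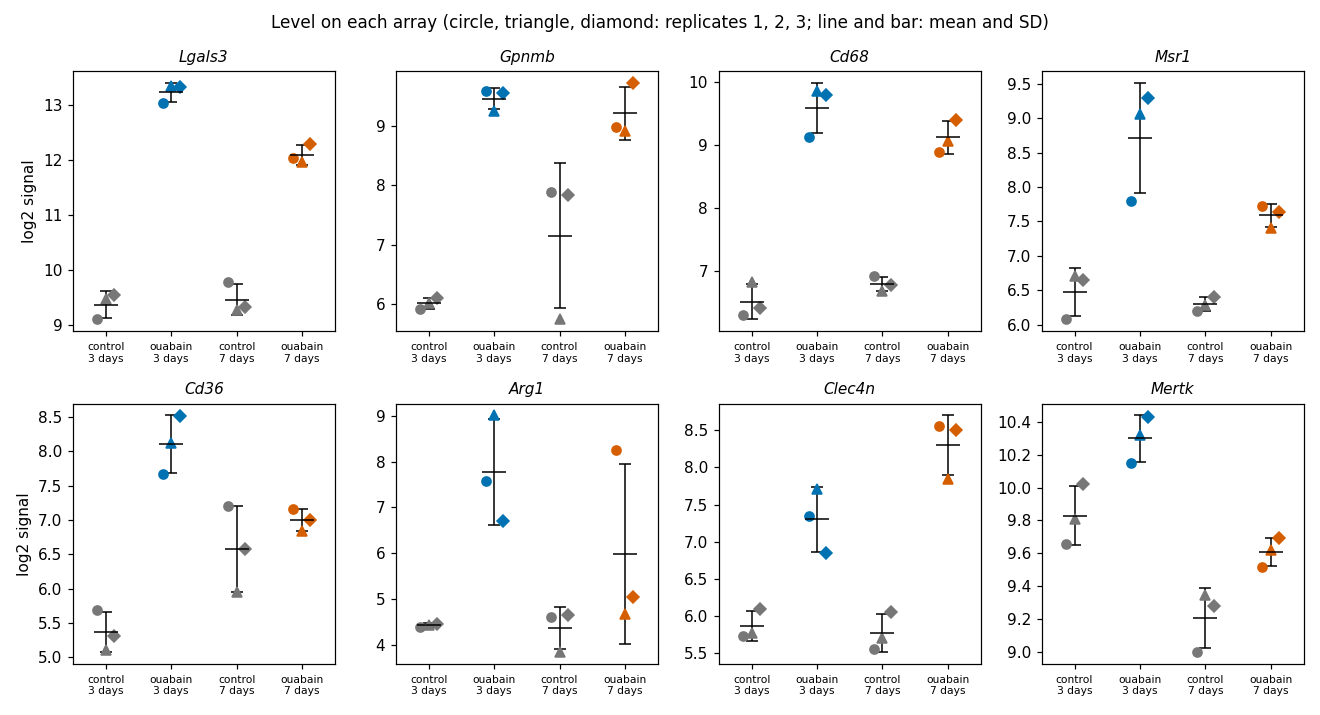
Log2 signal on each of the 12 arrays for 8 members, with circles, triangles and diamonds for replicates 1, 2 and 3 and a line and bar for the group mean and SD. The y axes do not start at 0 and differ between panels. Lgals3 sits near 13 after ouabain at 3 days, and Arg1 at 7 days is high on 1 ouabain array only, at 8.24.

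Cd36, a scavenger receptor for oxidised lipids that endothelium and fat cells also make, behaved differently at the 2 days. At 3 days it read 5.69, 5.11 and 5.31 on controls and 7.67, 8.12 and 8.52 after ouabain, a rise of 2.74 (SE 0.28, adjusted p = 2.53e-05). At 7 days it read 7.21, 5.96 and 6.58 against 7.16, 6.84 and 7.00, and the groups overlapped. The 7-day difference was 0.42 (SE 0.28, adjusted p = 0.340), and control replicate 1 was the highest array of that day. Msr1, the class A scavenger receptor, rose by 2.24 and 1.29, with 7.80 on ouabain replicate 1 at 3 days against 9.06 and 9.29 on replicates 2 and 3. Of the 4 Msr1 probe sets 3 were called at 3 days and 2 at 7 days. Axl, a receptor for apoptotic cells, rose almost equally at both days, by 2.21 and 2.11. Apoe, the lipid carrier of glia and macrophages, was not called at either day. Its level was near the top of the scale on every array, up to 13.8. It differed by 0.02 at 3 days and by 0.58 at 7 days (adjusted p = 0.00175), where the fold of 1.49 missed the threshold. Without control replicate 2 or 3 or ouabain replicate 1 at 7 days Apoe passed, with 0.65, 0.60 and 0.63.

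Among the genes of lysosome, killing and arginase, 6 of 6 rose at 3 days and 5 at 7 days. Cd68 (macrosialin), the lysosomal glycoprotein by which phagocytes are stained, read 6.30, 6.82 and 6.41 on the 3-day controls and 9.13, 9.86 and 9.79 after ouabain, then 6.92, 6.69 and 6.78 against 8.90, 9.07 and 9.41. The groups were about 2 or more log2 units apart at each day. It rose by 3.09 (SE 0.20, adjusted p = 9.55e-07) and 2.33 (SE 0.20, adjusted p = 6.14e-06). Arg1 (arginase 1), a marker of wound-healing macrophages, rested at 4.39, 4.45 and 4.46 on 3-day controls and read 7.58, 9.01 and 6.72 after ouabain. At 7 days it read 4.62, 3.85 and 4.67 against 8.24, 4.68 and 5.04, where replicate 1 alone was far above controls. The rise was 3.33 at 3 days (SE 0.78, adjusted p = 0.00760) and the difference 1.61 at 7 days (SE 0.78, adjusted p = 0.165).

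Slc11a1 (Nramp1), which pumps iron out of the phagosome, rose by 2.03 and 1.49. Lyz2, the lysozyme of myeloid cells, rose by 1.87 and 1.73, and neutrophils make it too. Its 7-day controls read 11.64, 10.56 and 10.34, again with replicate 1 on top. Cybb, the membrane subunit of the phagocyte NADPH oxidase, rose by 1.05 and 1.39, and its 7-day controls read 9.21, 8.25 and 8.13. Ncf1, a cytosolic subunit of the same enzyme, rose by 1.04 and 0.91. Without control replicate 1 at 7 days the 7-day count was 41 in place of 39 and no member was lost. The part of the blood cells of that control in these values was not tested.

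The 10 members listed here as inflammatory markers (Cd14, Tlr2, Clec7a, Clec4n, Cd86, Msr1, Slc11a1, Cybb, Ncf1 and Arg1) were set beside the 6 resident ones. The name is a working label, since Arg1 marks wound-healing macrophages and Msr1 is a scavenger receptor. At 3 days all 10 were called higher with a median of 1.19, against 4 of 6 and 1.11 for the resident markers. At 7 days 9 were called, all but Arg1, with a median of 1.37 against 0.88. On the single arrays of 3 days the inflammatory median lay between 1.06 and 1.32 and the resident median between 0.94 and 1.29. On those of 7 days the inflammatory median lay between 1.27 and 1.44 and the resident median between 0.70 and 1.04. These ranges of array medians overlapped at 3 days and did not at 7 days. The responses of the single genes overlapped at 7 days too. They ran from -0.11 to 1.77 for the resident list and from 0.91 to 2.54 for the inflammatory one. Mertk and Siglec1 were the resident markers that were called at neither day, while Cx3cr1 and P2ry12 rose more than the median of the inflammatory list at both days. No test of the difference between the lists was made.

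**Figure D3:**
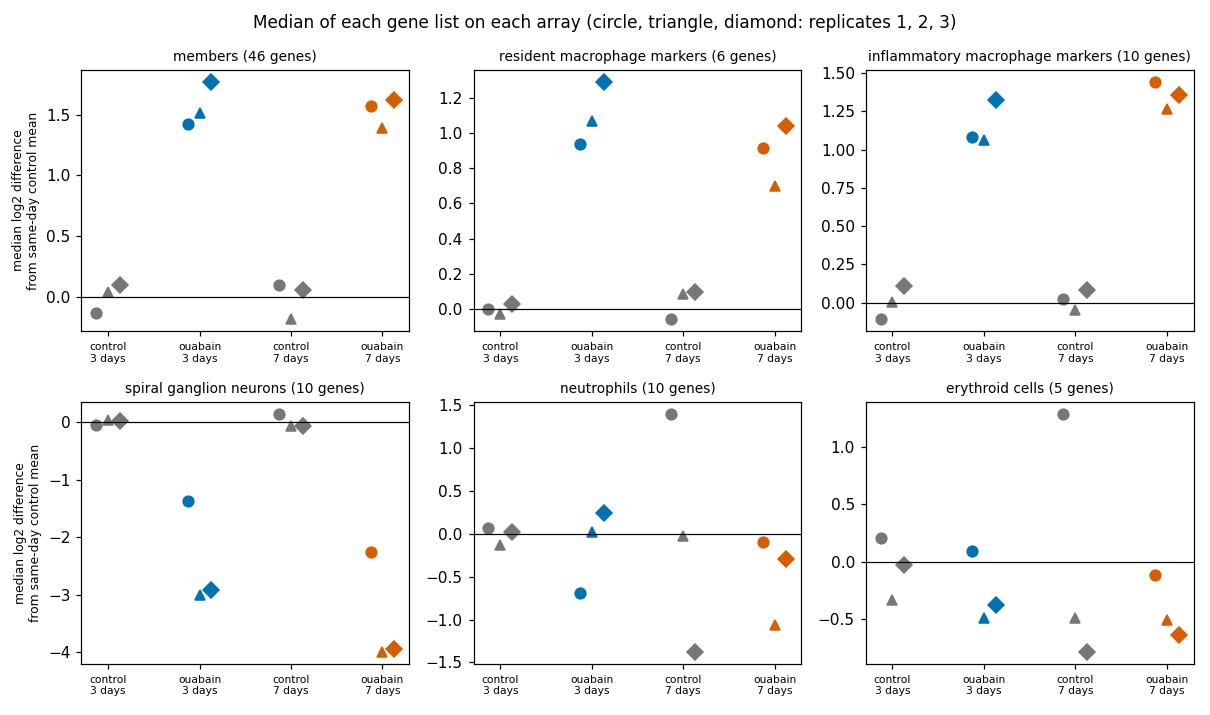
Median log2 difference from the same-day control mean on each array, for all 46 members, the resident and inflammatory markers, and markers of spiral ganglion neurons, neutrophils and erythroid cells, with circles, triangles and diamonds for replicates 1, 2 and 3. All 6 ouabain arrays are between 1.39 and 1.77 for the members, while neutrophil and erythroid markers are highest on control replicate 1 at 7 days.

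The response differed between the days for 2 of the 46 members, Cd36 and Lgals3, where 1.24% of all genes differed in either direction. In both it was smaller at 7 days. The 7-day minus 3-day difference was -2.32 for Cd36 (SE 0.40, adjusted p = 0.0198) and -1.23 for Lgals3 (SE 0.23, adjusted p = 0.0308). For Lgals3 the controls stood at 9.37 and 9.46, and it was the ouabain mean that went from 13.22 to 12.09. For Cd36 both moved, the controls from 5.37 to 6.58 and the ouabain mean from 8.10 to 7.00, and a second Cd36 probe set gave -2.67 (adjusted p = 0.0137) while the remaining, dim one gave -0.57 (adjusted p = 0.219). Both calls hung on few arrays. With each array left out in turn the Cd36 difference stayed between -2.63 and -2.01 but passed in 7 of 12 fits. It was lost without control replicates 2 or 3 at 3 days (adjusted p = 0.0559 and 0.0591), ouabain replicates 2 or 3 at 3 days (0.0643 and 0.0515) or ouabain replicate 2 at 7 days (0.0592). The Lgals3 difference stayed between -1.33 and -1.07 and passed in 5 of 12. It was lost without control replicates 1 or 2 at 3 days (0.0753 and 0.0553), ouabain replicates 2 or 3 at 3 days (0.0962 and 0.0818), control replicate 1 at 7 days (0.0539), or ouabain replicates 1 or 2 at 7 days (0.0823 and 0.0801).

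**Figure D4:**
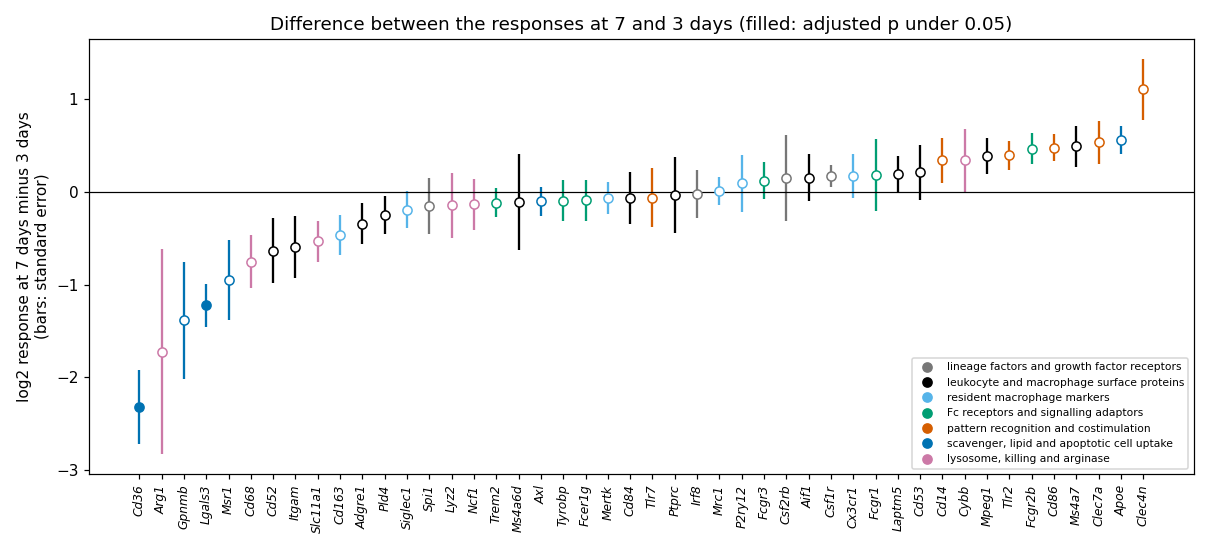
Log2 response at 7 days minus that at 3 days for each of the 46 members in order of size, with the standard error, coloured by role. Filled points, Cd36 at -2.32 and Lgals3 at -1.23, passed the test, and 5 of the 6 pattern recognition and costimulation genes lie above 0.

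Other members differed without passing, Arg1 and Gpnmb by more than Lgals3, and Msr1 and Cd68 by less. Arg1 differed by -1.72 (adjusted p = 0.566), Gpnmb by -1.39 (0.389), Msr1 by -0.95 (0.391) and Cd68 by -0.75 (0.276). Msr1 passed without ouabain replicate 1 at 3 days (-1.41, adjusted p = 0.0181). In all, 26 members had the larger response at 3 days and 20 at 7 days. Before adjustment 13 of them reached a p under 0.05, against 16.1% of all genes. Untreated ears did not differ between the days for any member after adjustment, where 3 genes of 18193 (0.0165%) did, though 11 members reached an unadjusted p under 0.05, Cd36 and Gpnmb among them, against 7.93% of all genes.

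Beyond the members, genes of the same pathways moved in part. Of 8 genes of ITAM and tyrosine kinase signalling, 4 rose at both days, namely Lcp2 (1.41 and 0.83), Btk (1.34 and 0.76), Inpp5d (1.30 and 1.08) and Syk (1.09 and 0.91). Syk is the kinase that Tyrobp and Fcer1g recruit, and Inpp5d is the phosphatase that Fcgr2b recruits. Of 3 further subunits of the NADPH oxidase, Ncf4 (1.12 and 1.06) and Cyba (1.10 and 1.01) rose, and Rac2 was not called at either day.

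Of 7 ligands, 3 rose and 1 fell at both days. Pros1, a bridge between apoptotic cells and Mertk, rose by 1.36 and 1.19, while Gas6, the ligand of Axl, fell by 0.85 and 1.05. Csf1 and Il34, the ligands of Csf1r, rose by 0.77 and 0.93 and by 0.74 and 0.70. Of 10 further uptake receptors and bridging proteins 2 rose at 3 days and 3 at 7 days. They were Stab1 (1.87 and 1.87), a receptor of sinusoidal endothelium and macrophages, Itgb2 (1.69 and 1.55), the partner chain of Itgam, and at 7 days Lrp1 (0.95).

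Of 13 further genes of microglia and resident macrophages 9 rose at each day, with medians of 1.504 and 0.95. The largest were Gpr34 (1.95 and 2.32), C1qb (2.07 and 2.31), Lyve1 (2.14 and 0.78) and Olfml3 (1.68 and 2.09). Of 11 genes of monocyte-derived or lipid-laden macrophages 4 rose at 3 days (median 0.54) and 5 at 7 days (median 0.78). These were Clec4d (2.05 and 2.23), the lipid droplet protein Plin2 (1.80 and 1.06), the monocyte chemokine receptor Ccr2 (1.66 and 0.87), the cholesterol exporter Abca1 (1.61 and 1.42) and, at 7 days, Lpl (0.92).

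Genes that mark other blood, vessel and bone cells were mostly not called. Of 10 neutrophil genes limma called none at 3 days (1 at an unadjusted p under 0.05) and Csf3r alone at 7 days (0.92), with mean levels of 8.53 to 8.88 on 3-day controls, 8.05 to 8.94 on ouabain arrays of that day, 7.18 to 9.39 on 7-day controls and 7.49 to 8.25 after ouabain. S100a8, S100a9 and Ngp, granule and cytosol proteins of neutrophils, differed by -0.08, -0.19 and -0.14 at 3 days and by -0.13, -0.35 and -0.55 at 7 days. None of 5 erythroid, 7 B cell, 7 T and NK cell or 8 endothelial genes was called by limma, and at an unadjusted p under 0.05 there were 0, 1, 0 and 2 at 3 days and 0, 0, 0 and 3 at 7 days. Over all genes 39.3% were under that p at 3 days and 42.2% at 7 days. By group in the order given for neutrophils, the mean levels were 4.97 to 6.03, 4.98 to 5.85, 5.98 to 7.61 and 5.86 to 6.49 for erythroid genes, of which Slc4a1 and Alas2 differed by 0.10 and -0.41 at 3 days and by -0.65 and -0.44 at 7 days. Over all arrays the mean levels ran from 4.94 to 5.56 for B cell genes, 5.12 to 5.53 for T and NK cell genes and 8.58 to 9.11 for endothelial genes. Igll1 and Vpreb3 of B cells differed by 0.41 and -0.01 at 3 days and by 0.23 and 0.0031 at 7 days, and Cd3e and Cd4 of T cells by 0.07 and 0.09 and then by -0.11 and 0.19. Endothelial genes stood differently at the 2 days. Of the 8, 1 had a fold change above 0 at 3 days (median -0.16) and 7 had at 7 days (median 0.34). At 7 days 4 of the 8 had every ouabain array above every control, against 25.6% of all genes. Emcn differed by 0.47 and 0.52 and Cldn5, a tight junction protein, by -0.20 and 0.43 (adjusted p = 0.0280 in limma, under the fold threshold). The part of endothelial RNA in the member values was not tested. Of 8 osteoclast genes Atp6v0d2 alone rose (1.04 and 1.31), Ctsk differed by 0.40 and 0.53 and the acid phosphatase gene Acp5 by 1.90 (SE 0.73, adjusted p = 0.0854 in limma) and 0.08 without a call, and 4 of them, Calcr, Ocstamp, Dcstamp and Oscar, stayed below 6 on every array. At an unadjusted p under 0.05 there were 2 of the 8 at 3 days and 3 at 7 days. Of 5 dendritic cell genes Flt3 alone was called, with falls of 2.17 and 2.74, and the medians of the list were -0.03 and -0.02. Of 5 mast cell genes Kit alone was called, with a fall of 0.78 at 3 days, and the medians were 0.04 and -0.03. Below 6 on every array were 3 of the dendritic cell genes and 4 of the mast cell genes. Of the ouabain arrays at 3 days, replicate 1, which had the smallest neuronal fall, held the lowest value for 33 of the 46 members. At 7 days, where replicate 1 again had the smallest neuronal fall, it held the lowest value for 11 members and replicate 2 for 28. Without ouabain replicate 1 at 3 days 43 members were called at that day, as with it, but a count of calls does not measure the size of a response. The part of the neuronal loss in the size of the member responses was not tested.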

How the data were processed

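The values were the deposited log2 expression signals of 12 Affymetrix mouse arrays, 1 per probe set and array. The authors made them by RMA in Expression Console and also ran MAS5, with no version given in the sources used here. RMA background-corrects, quantile-normalizes and summarises the probes, so a shift shared by most genes would be removed and the folds of very bright or dim genes are compressed. The table held 45101 probe sets, of which 45037 were tested once the 64 controls had been removed. Of the 45101, 932 carried several symbols and 9160 none, and none of these stood for a gene.

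A mean for each of the 4 groups was fitted by limma (3.58.1, R 4.3.3), with moderated variances and Benjamini-Hochberg adjustment over all tested probe sets. The fold threshold of 1.5 follows the authors' methods, whose t-test was an alternative. The difference between the days had no fold threshold. The members and gene lists were chosen with earlier results of these data known, and no test was made on a list. For each role the 2 genes with the largest response are given with all 12 values, as is each gene whose response differed between the days. From each further list up to 4 called genes are named, and of other cell types a few genes. A listed gene with no probe set of its own symbol alone is not analysed here.

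The alternatives were the methods' t-test, unadjusted or adjusted, the 6 arrays of a day, a replicate block, no fold threshold or a fold above 2, a second quantile normalization, only probe sets above 6 on at least 3 arrays, scaling to the 75th percentile, trend and robust moderation, the mean over probe sets, no probe sets with _x_at or _s_at names, and each array left out in turn. The fit was tested on simulated data. Promoters were searched and figures drawn with Python 3.11.15 (pandas 2.3.3, matplotlib 3.10.9).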

Additional observations from a re-analysis of the deposited data

Results flagged for a closer look

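The response of Cd36 at 7 days was smaller than at 3 days by 2.32 on the log2 scale (difference -2.32, SE 0.40, limma adjusted p = 0.0198), and that of Lgals3 by 1.23 (difference -1.23, SE 0.23, limma adjusted p = 0.0308). The test of the difference between the days picked both out. In each gene all 3 ouabain arrays of 3 days were above all 3 of 7 days. Both calls were lost in some of the fits with an array left out, as given above.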

How the results depend on the processing

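With each array left out in turn, 40 to 43 members were called higher at 3 days and 37 to 41 at 7 days, and 0 to 3 differed between the days. That last count was 0 without control replicate 2, ouabain replicate 2 or ouabain replicate 3 at 3 days or ouabain replicate 2 at 7 days, and 3 without ouabain replicate 1 at 3 days, which added Msr1, or control replicate 2 at 7 days, which added Gpnmb. Trend and robust moderation also gave 3, adding Apoe. Across the other alternatives the counts ran from 33 to 44 at 3 days and 31 to 41 at 7 days, lowest under the methods' t-test with adjusted p (33 and 31; 41 and 37 unadjusted). No member differed between the control groups in any fit that tested it. The direction changed for Apoe at 3 days under the second quantile normalization (-0.006712) and with arrays left out (lowest -0.0238, highest 0.0976), for Siglec1 at 7 days as the mean over probe sets (0.00605) and at 3 days with arrays left out (lowest -0.0313, highest 0.174), and for Trem2 at 7 days without _x_at and _s_at probe sets (-0.22). None of these was past the threshold, and the causes were not tested. Of 92 gene results, 60 kept their direction and side of the threshold in every alternative run. Same-numbered control and ouabain arrays had correlated deviations of 0.334, 0.0892 and 0.177 at 3 days and 0.277, 0.155 and 0.0189 at 7 days. Each control array correlated best with the ouabain array of its own number. The reverse failed for ouabain replicate 2 at 3 days, which was closest to control replicate 3 (0.146). It also failed for ouabain replicate 3 at 7 days, which was closest to control replicate 2 (0.152). The arrays were not taken as pairs, and with the replicate block 43 members were called at 3 days, 41 at 7 days (Itgam and Cd52 added) and 2 for the day difference. The day difference had no value under the t-test, in the 6-array fits or with other fold thresholds. With 3 arrays a group, changes near the fold threshold are the least certain.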
